A study of Mus musculus with 20 samples.

Results

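Matrix proteoglycans are secreted core proteins that carry sugar chains and fill the space between cells, and 10 of them were followed by symbol among the 47069 genes of the deposited count table. They were the class I small leucine-rich proteoglycans decorin (Dcn), biglycan (Bgn) and asporin (Aspn), the class II members lumican (Lum), fibromodulin (Fmod) and Prelp, the class III member osteoglycin (Ogn), podocan (Podn), and the large hyaluronan-binding proteoglycans versican (Vcan) and aggrecan (Acan). Each of the 10 also had 1 entry in the deposited FPKM table, and 9 passed the filter on low counts, all but Acan. Whole-kidney RNA of 20 male mice of the 129SJ x C57Bl/6J cross was sequenced at 15 weeks of age, and mice are named by their replicate names. The 5 WT mice received no treatment and no injection. The other 15 were F1-Col4a3-/- mice, constitutive knockouts of a type IV collagen gene that model Alport syndrome, treated from 5 weeks of age. Of these, 6 received PBS weekly under the skin (Veh), 6 were injected each week with 50 mg/kg of lademirsen in PBS, an oligonucleotide that binds and inhibits miR-21 (anti-miR-21), and 3 received the angiotensin-converting enzyme inhibitor ramipril in the drinking water (ACEi), by the methods with the same PBS injections as Veh. The labels give ramipril at 11 mg/L, whereas the deposited library table gives 4 mg/kg. WT and Veh thus differ in injection as well as in genotype, and nothing in the labels ties a mouse of one group to a mouse of another.

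In connective tissue, fibroblasts secrete decorin, biglycan, lumican and fibromodulin, which bind along collagen fibrils and limit how thick these grow. Decorin is also known to bind transforming growth factor beta, and soluble biglycan is known to act on Toll-like receptors of macrophages. Versican and aggrecan form large complexes with hyaluronan, and aggrecan is best known from cartilage. In the kidney these proteins lie mainly in the interstitium and around vessels and are studied in fibrosis.

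The libraries held between 28474301 and 29479629 counts on genes, so depth was nearly the same in all mice. Levels are given as CPM, counts scaled to a common library size, after edgeR's TMM scaling, which can be compared between mice, and the levels of the 10 genes are ranked as FPKM, which divide by exon length. Ratios of counts between genes, and markers named for the highest CPM of a list, are not divided by length. Calls rest on an adjusted p under 0.05 in edgeR's quasi-likelihood test, with Benjamini-Hochberg adjustment over the 17622 genes tested. Log2 fold changes are followed by their standard error (SE). Nothing in the labels says more of how the mice were raised, and the p-values measure the spread between these mice.

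Genotype and tissue were checked first. Col4a3 stood at 194 to 238 CPM in WT and at 27.9 to 74.9 CPM in the 15 F1-Col4a3-/- mice. Slc34a1, the phosphate transporter of the proximal tubule, had the highest CPM of the 4 proximal tubule markers, which summed to 9596 to 12662 CPM in WT. The extraction text of the labels names adipose tissue, and adipocyte markers stood apart in 4 libraries, with sums of 419 CPM in Veh mouse A1, 373 CPM in A4, 363 CPM in A9 and 231 CPM in anti-miR-21-treated mouse A12. Without these 4 mice the number of the 10 genes called stayed at 7 between Veh and WT, went from 5 to 3 between anti-miR-21 and Veh, and from 2 to 1 between ACEi and Veh. Over all genes the calls in the latter comparisons also went down, from 10440 of 17622 to 8007 of 17263 and from 7074 of 17622 to 4614 of 17263. WT mouse A18 had the lowest CPM of the WT group for 5 of the 9 genes tested, and its endothelial markers summed to 77.1 CPM against 145 to 213 CPM in the other WT mice.

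Because lademirsen binds miR-21, the mature mouse miR-21a-5p (RefSeq, GRCm38.p6, chr11:86584120-86584141, minus strand) is shown with its seed, bases 2 to 8, in capitals.
mmu-miR-21a-5p: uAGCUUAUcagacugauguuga
The letters that pair with this seed, ATAAGCT, or the shifted heptamer that ends in the A opposite base 1, TAAGCTA, were looked for on the sense strand of the longest annotated 3′ untranslated region of each gene (GENCODE M21). One of the 10 proteoglycan genes held such a match, compared with 1828 of the 15227 tested genes that have such a region. It was Aspn, with 1 match in the 3′ untranslated region (GRCm38, chr13:49567265-49567291, plus strand), shown with the paired letters in capitals.
Aspn site: gatcagttatATAAGCTttgaagaaca
The regions of Bgn (1137 bases), Lum (652 bases), Vcan (1919 bases), Dcn (488 bases) and Podn (931 bases) held neither heptamer. A match of letters is a description and not a site of action, and its absence says only that these letters were not in that window.

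Per exon length, biglycan mRNA was the most abundant of the 10 in every group. Its mean FPKM was 81.8 ± 25.7 (SD, n = 5) in WT and 819 ± 62.6 (SD, n = 6) in Veh. Decorin came next at 25.2 ± 7.48 FPKM (SD, n = 5) in WT and 122 ± 22.3 FPKM (SD, n = 6) in Veh, and neither gene overlapped its neighbours in the order. In WT the order went on with Podn (12.3), Prelp (10.6), Ogn (6.83), Fmod (3.47), Lum (2.14), Aspn (0.703) and Vcan (0.442 mean FPKM), and from Podn to Vcan each gene overlapped the next. In Veh the order was Prelp (33.7), Ogn (15.6), Lum (13.7), Podn (9.65), Fmod (6.57), Vcan (2.67) and Aspn (1.13 mean FPKM), where Ogn overlapped Lum and Lum overlapped Podn. Podn thus moved from rank 3 to rank 6. Biglycan alone made up 56.4% ± 2.78 (SD, n = 5) of the summed FPKM of the 10 genes in WT, 80.1% ± 1.32 (SD, n = 6) in Veh, 68.2% ± 2.01 (SD, n = 6) with anti-miR-21 and 77.4% ± 0.601 (SD, n = 3) with ACEi. The share of decorin was 17.5% ± 0.691 in WT, 11.8% ± 1.35 in Veh, 20.2% ± 1.25 with anti-miR-21 and 12.1% ± 0.989 with ACEi, over the same numbers of mice. The deposited annotation lists no exon length for Bgn, so the length behind its FPKM is not known, and its place above Dcn rests on the authors' value. FPKM are divided by the library total alone, so levels between groups carry the shift described with the comparisons.

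**Figure D1:**
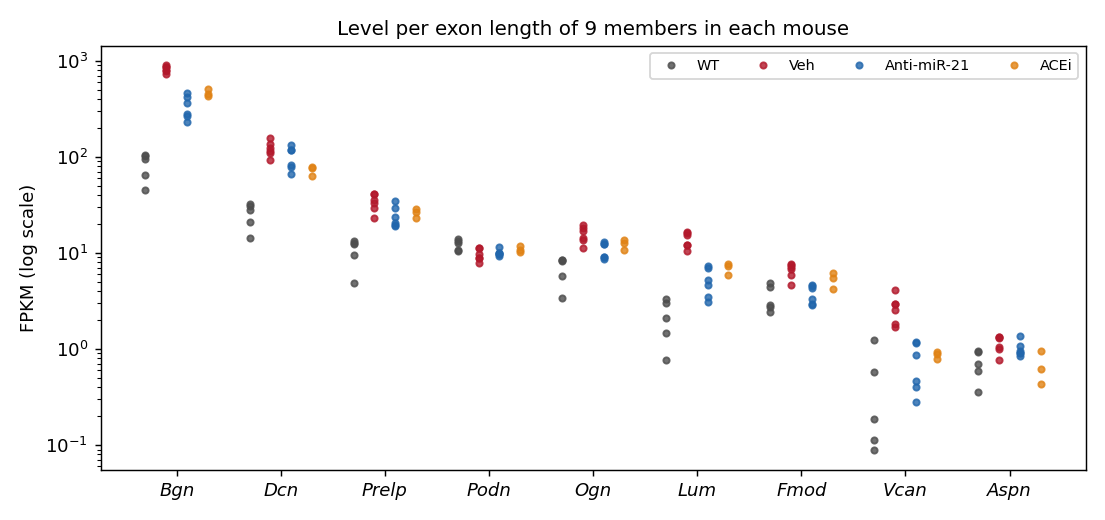
FPKM (log scale) of 9 of the 10 genes in each mouse, 1 point per mouse, coloured by group (5 WT, 6 Veh, 6 anti-miR-21, 3 ACEi). Bgn is highest in each group, at a mean of 81.8 FPKM in WT and 819 FPKM in Veh, and Acan is left out because it was at or near 0.

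Aggrecan was not detectable at this depth in 18 of the 20 mice. It had 8 counts in WT mouse A14, 1 count in anti-miR-21-treated mouse A12 and 0 counts in all others, where 0 counts allow up to 3. The cartilage markers were near 0 as well. Comp, a cartilage protein also made elsewhere, was the most abundant of the 4, Matn1 and Col9a1 had 0 counts in most mice, and the list summed to 0.394 to 4.17 CPM over the 20 mice. Acan (ENSMUSG00000030607, chromosome 7 from 79053483 to 79115099) was therefore not tested.

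Untreated disease was addressed by the comparison of Veh with WT. Of the 9 proteoglycan genes tested, 6 were higher and 1 was lower in Veh, 7 in all, against a background of 73% of all genes tested that differed, 39% higher and 34% lower. The median log2 fold change of the 9 was 1.08, beside 0.07 for all genes tested. For 5 of the 9 the ranges of the groups were apart, against 54.9% of all genes tested. The share of 7 of 9 called in either direction lies near the background. With library totals in place of TMM scaling, the median of all genes moved to 0.65 and the share of calls that were higher in Veh went from 53.4% to 81.2%. The direction of the 7 calls held under that scaling.

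Biglycan (Bgn, ENSMUSG00000031375, chromosome X from 73483602 to 73495933, plus strand), a collagen-binding proteoglycan with a pair of chondroitin or dermatan sulphate chains, rose most in the fit on all mice. WT mice A3, A6, A14, A17 and A18 had 198, 288, 302, 260.2 and 132 CPM. Veh mice ranged from 1463 CPM in A1 to 1690 CPM in A9, with a median of 1573 CPM. Each Veh mouse thus lay far above each WT mouse, with a log2 fold change of 2.74 (SE 0.18, adjusted p = 7.7e-11), or 6.66-fold. The promoter of Bgn (RefSeq, GRCm38.p6, chrX:73483351-73483650, plus strand, around the start site) is shown because this gene had the largest rise, with matches to the GC box GGGCGG on either strand in capitals.
Bgn promoter: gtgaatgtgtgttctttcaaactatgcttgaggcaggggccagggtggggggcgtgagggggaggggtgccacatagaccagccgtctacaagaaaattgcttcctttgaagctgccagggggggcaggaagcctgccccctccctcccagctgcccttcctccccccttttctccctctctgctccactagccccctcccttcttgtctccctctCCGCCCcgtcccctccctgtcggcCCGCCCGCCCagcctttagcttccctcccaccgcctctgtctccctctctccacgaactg
It held 3 matches, all on the other strand as CCGCCC and one pair of them overlapping, and GGGCGG on either strand was in 35.7% of all 32851 promoters of that length.

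Decorin (Dcn, ENSMUSG00000019929, chromosome 10 from 97479609 to 97518143, plus strand), with a single such chain, rose as well. The WT mice A3, A6, A14, A17 and A18 stood at 49.7, 69.8, 70.9, 60.3 and 32.4 CPM. In Veh the lowest was A16 at 149.5 CPM, the median 175 CPM and the highest A9 at 229 CPM. The groups were apart, with a log2 fold change of 1.68 (SE 0.18, adjusted p = 5.3e-08), a 3.20-fold rise.

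Lumican (Lum, ENSMUSG00000036446, chromosome 10 from 97565128 to 97572703, plus strand), a keratan sulphate proteoglycan of collagen fibrils, lies 47.0 kb from Dcn with no coding gene between them. It was measured at 3.92, 8.12, 5.41, 7.28 and 1.93 CPM in WT mice A3, A6, A14, A17 and A18. Veh mice had 18.8 CPM at the lowest (A16), 22.7 CPM at the median and 26.7 CPM at the highest (A20). The lowest Veh mouse was above the highest WT mouse, and the log2 fold change was 2.09 (SE 0.26, adjusted p = 4.19e-07).

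Versican (Vcan, ENSMUSG00000021614, chromosome 13 from 89655312 to 89742509, minus strand) was low and uneven in WT. Mice A3, A6 and A18 had 0.49, 0.574 and 0.923 CPM, whereas A14 had 3.8 CPM and A17 6.91 CPM. Veh mice ranged from 6.82 CPM (A19) over a median of 10.5 CPM to 15.96 CPM (A4), so that WT mouse A17 lay within the lowest part of the Veh range. The log2 fold change was 2.07 (SE 0.52, adjusted p = 0.00143). A14 and A17 were also the WT mice highest in urothelium markers, at 17.8 and 35.1 CPM against 2.23 to 4.404 CPM in the other WT mice, and in mesothelium markers, at 17.1 and 13.7 CPM against 3.78 to 5.03 CPM. Veh mice A1 and A4 had the highest urothelium sums of all, 191 and 117 CPM. As A17 and A14 had the highest Vcan in WT, leaving them out lowers the WT mean. Without A17 the log2 fold change of Vcan was 2.88, and without A14, A17, A1 and A4 it was 3.86 (adjusted p = 3.43e-06). On flow cell B alone, with 2 WT and 2 Veh mice, it was 1.65 and not called (adjusted p = 0.0863). The part of those cell types in the Vcan values was not tested.

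Prelp and osteoglycin rose less. Prelp (ENSMUSG00000041577, chromosome 1 from 133910304 to 133921414), which anchors basement membranes to collagen, had 21.1 to 56.9 CPM in WT and 65.1 to 118 CPM in Veh. These ranges did not overlap, and the log2 fold change was 1.08 (SE 0.20, adjusted p = 6.39e-05). Ogn (ENSMUSG00000021390, chromosome 13 from 49608046 to 49624501), a class III member of collagenous matrix, had 10.2 to 25.9 CPM in WT and 22.2 to 38.7 CPM in Veh, with a log2 fold change of 0.60 (SE 0.18, adjusted p = 0.00595) and overlapping ranges. On flow cell B alone Ogn was not called (0.89, adjusted p = 0.0742).

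Fibromodulin and asporin did not pass the test. Fmod (ENSMUSG00000041559, chromosome 1 from 134037254 to 134048277), which binds the same collagen as lumican, had 8.57 to 16.8 CPM in WT and 11.6 to 17.4 CPM in Veh, with a log2 fold change of 0.30 (95% interval −0.07 to 0.68, adjusted p = 0.134). It was called higher with library totals (0.89, adjusted p = 0.000285), with upper-quartile scaling (0.42, adjusted p = 0.0457), in limma on log2(FPKM + 1) (0.78, adjusted p = 0.000245) and without WT mouse A6 (0.45, adjusted p = 0.033). Aspn (ENSMUSG00000021388, chromosome 13 from 49544443 to 49567565), a member that binds collagen but carries no such chain, had 1.07 to 2.66 CPM in WT and 1.37 to 2.68 CPM in Veh. Its log2 fold change was 0.11 (95% interval −0.39 to 0.61, adjusted p = 0.684), and it too was called higher with library totals (0.68, adjusted p = 0.0157) and in limma on log2(FPKM + 1) (0.33, adjusted p = 0.00988).

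Podocan (Podn, ENSMUSG00000028600, chromosome 4 from 108014791 to 108096445, minus strand), a leucine-rich proteoglycan known from vascular smooth muscle, moved the other way. WT mice A3, A6, A14, A17 and A18 had 44.2, 40.03, 54.9, 46.6 and 52.1 CPM. In Veh it ranged from 19.6 CPM in A1 over a median of 24.9 CPM to 28.7 CPM in A4. All Veh mice lay below all WT mice, with a log2 fold change of −0.94 (SE 0.10, adjusted p = 3.24e-08). The fall was smaller with library totals (−0.36, adjusted p = 0.00203) and in limma on log2(FPKM + 1) (−0.32, adjusted p = 0.00403). One of the 2 listed promoters of Podn (RefSeq, GRCm38.p6, chr4:108031905-108032204, minus strand) is shown as that of the gene that fell, with GGGCGG matches on either strand in capitals.
Podn promoter: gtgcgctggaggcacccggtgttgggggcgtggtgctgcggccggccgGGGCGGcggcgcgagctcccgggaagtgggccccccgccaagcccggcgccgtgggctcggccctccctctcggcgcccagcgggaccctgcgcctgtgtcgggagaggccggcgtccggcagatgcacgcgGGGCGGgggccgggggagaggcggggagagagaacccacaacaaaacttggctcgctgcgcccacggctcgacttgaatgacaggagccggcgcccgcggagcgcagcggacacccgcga
Promoters were matched for 8 of the 10 genes, 9 promoters in all, and not for Dcn and Lum. The motif GGGCGG was in 4 of the 9, and CAGAC, the core letters bound by SMAD factors, in 3 of the 9, compared with 49.6% of all promoters of that length. TATAAA was in the promoters of Aspn and Ogn only among the 9, and in 13.6% of all, and the AP-1 letters TGANTCA were in none of the 9 and in 7.81% of all, each on either strand. No match says only that these letters were not in that window.

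**Figure D2:**
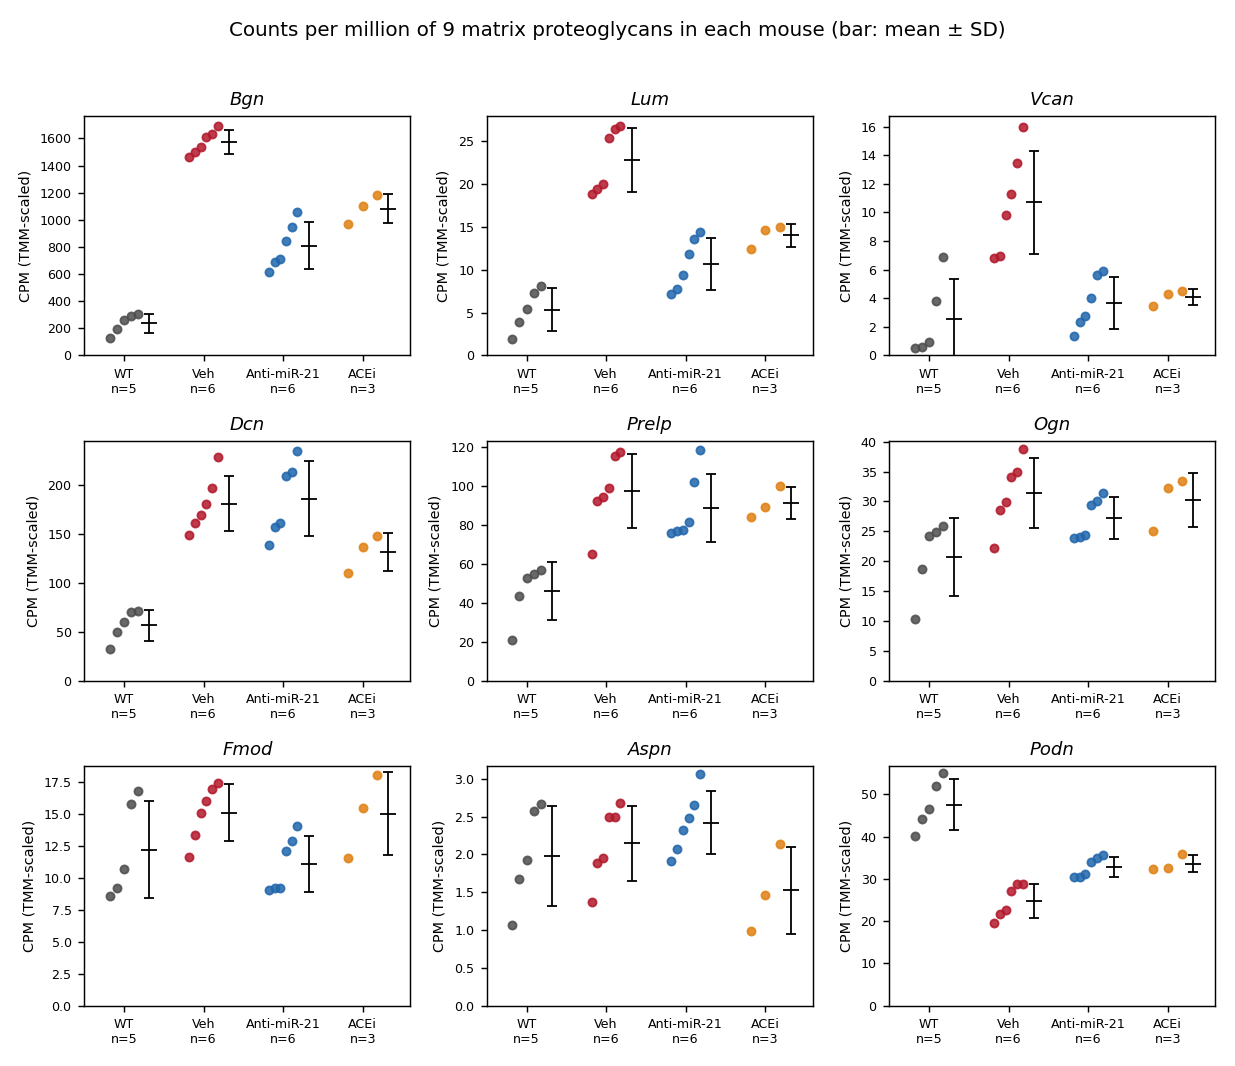
TMM-scaled CPM (linear axis from 0) of 9 genes in each mouse, 1 point per mouse sorted by value within its group, with the group mean ± SD as a bar (5 WT, 6 Veh, 6 anti-miR-21, 3 ACEi; the lower end of the Vcan bar in WT is below the axis). Bgn, Lum and Vcan lie below the Veh range in every mouse of both treatment groups, Dcn stays at a mean of 186 CPM with anti-miR-21 beside 181 CPM in Veh, and Podn is lowest in Veh.

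Whether anti-miR-21 changed these levels was asked against Veh. Of the 9 genes, 4 were lower and 1 was higher with anti-miR-21, 5 in all, against 59.2% of all genes tested, 30.5% lower and 28.8% higher. Ranges were apart for 4 of the 9, against 36.4% of all genes tested. The median log2 fold change was −0.21 for the 9 genes and −0.04 for all genes, and with library totals the latter was −0.38.

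Biglycan, lumican and versican fell with anti-miR-21. Bgn ranged from 617 CPM (A22) over a median of 775 CPM to 1058 CPM (A8), below every Veh mouse, a log2 fold change of −0.96 (SE 0.16, adjusted p = 4.36e-05). Lum ranged from 7.17 CPM (A22) over 10.6 CPM to 14.3 CPM (A8), also below every Veh mouse, with a log2 fold change of −1.09 (SE 0.23, adjusted p = 0.000438). Vcan ranged from 1.36 CPM (A22) over 3.38 CPM to 5.90 CPM (A10), below the Veh range, with a log2 fold change of −1.54 (SE 0.47, adjusted p = 0.00857). The call of Vcan was lost without the 4 mice highest in adipocyte markers (−1.39, adjusted p = 0.0739), as was that of Fmod (−0.32, adjusted p = 0.258). Fmod, at 9.02 to 14.1 CPM, was lower by 0.44 on the log2 scale (SE 0.17, adjusted p = 0.0309) with overlapping ranges, and leaving out 1 mouse ended this call for 7 of the 12 mice. Anti-miR-21-treated mouse A22 had the lowest CPM of its group for 5 of the 9 genes.

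Decorin did not follow biglycan. With anti-miR-21, Dcn ranged from 139 CPM (A22) over a median of 186 CPM to 235 CPM (A2), across the whole Veh range. The log2 fold change was 0.04 (95% interval −0.31 to 0.38, adjusted p = 0.852). Its sign turned with library totals (−0.29, adjusted p = 0.174), upper-quartile scaling (−0.04, adjusted p = 0.851) and limma on log2(FPKM + 1) (−0.32, adjusted p = 0.198), and it was called under none of them. Prelp had 76.0 to 118 CPM (log2 fold change −0.13, 95% interval −0.52 to 0.25), Ogn 23.9 to 31.4 CPM (−0.21, −0.56 to 0.15) and Aspn 1.91 to 3.06 CPM (0.17, −0.29 to 0.64), none of which passed the test. With library totals Ogn (−0.54, adjusted p = 0.0149) and Prelp (−0.46, adjusted p = 0.0484) were called lower, and Ogn also in limma on log2(FPKM + 1) (−0.50, adjusted p = 0.0262) and log2(FPKM + 0.1) (−0.53, adjusted p = 0.0323). Podn was higher, at 30.4 to 35.7 CPM, above every Veh mouse, with a log2 fold change of 0.41 (SE 0.10, adjusted p = 0.00103). This call was lost with library totals (0.06, adjusted p = 0.542) and in limma on log2(FPKM + 1) (0.06, adjusted p = 0.579).

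With ACEi fewer of the genes passed the test. Against Veh, 1 of the 9 was lower and 1 higher, 2 in all, where 40.1% of all genes tested differed, 19.1% lower and 21% higher. Ranges were apart for 5 of the 9, against 38.6% of all genes tested. The median log2 fold change was −0.46 for the 9 and −0.05 for all genes. ACEi had 3 mice, and its intervals are wider. Bgn, at 969, 1100 and 1180 CPM in A11, A13 and A23, lay below every Veh mouse, with a log2 fold change of −0.54 (SE 0.20, adjusted p = 0.0389). Leaving out any 1 of the 9 mice ended this call, with adjusted p from 0.0565 to 0.152. It was also lost once flow cell, on which ACEi had 1 mouse on A and 2 on B and Veh 4 and 2, entered the fit (−0.49, adjusted p = 0.0665), and with no filter (−0.52, adjusted p = 0.0615). Podn, at 32.3, 32.5 and 35.9 CPM, lay above every Veh mouse, with a log2 fold change of 0.44 (SE 0.11, adjusted p = 0.0045), and this call was lost with library totals (0.17, adjusted p = 0.208). The call of Podn was also lost in both limma fits on FPKM (0.157 and 0.172) and on flow cell B alone (0.217, adjusted p = 0.219).

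The other members of the ACEi comparison missed the threshold. Lum had 14.9, 12.5 and 14.6 CPM in A11, A13 and A23, all below the Veh range (log2 fold change −0.70, 95% interval −1.30 to −0.10, adjusted p = 0.0578), and was called lower with DESeq2 (−0.71, adjusted p = 0.0353), upper-quartile scaling (−0.78, adjusted p = 0.0391) and at least 10 counts in every mouse (−0.71, adjusted p = 0.0499). Vcan had 4.30, 4.47 and 3.48 CPM, again below the Veh range (−1.39, 95% interval −2.65 to −0.13, adjusted p = 0.0725), and was called lower with flow cell in the fit (−1.63, adjusted p = 0.0368) and without A1, A4, A14 and A17 (−1.23, adjusted p = 0.0259). Dcn had 110, 148 and 137 CPM, just below the lowest Veh mouse (−0.46, 95% interval −0.89 to −0.03, adjusted p = 0.0817), and was called lower with upper-quartile scaling (−0.54, adjusted p = 0.0476). When the fit held only the ACEi and Veh mice Lum, Vcan and Dcn were all called lower (adjusted p = 0.0027, 0.00278 and 0.0254). They were also called lower with library totals or limma on FPKM, where 5 of the 9 genes (Bgn, Lum, Vcan, Dcn and Aspn) were called in place of 2. More of all genes were called there too, 9296 of 17622 with library totals, 7389 of them lower. Limma called 9642 of 21460 on log2(FPKM + 1), 7796 of them lower, and 9173 of 21460 on log2(FPKM + 0.1), 7335 of them lower. Prelp (83.9 to 99.96 CPM), Ogn (24.99 to 33.4 CPM) and Fmod (11.6 to 18 CPM) overlapped Veh, with log2 fold changes of −0.09, −0.06 and −0.01. Aspn had 0.988 to 2.13 CPM, with a log2 fold change of −0.48 (95% interval −1.07 to 0.11, adjusted p = 0.181), and was called lower with library totals (−0.74, adjusted p = 0.0391) and in limma on log2(FPKM + 1) (−0.36, adjusted p = 0.0249).

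**Figure D3:**
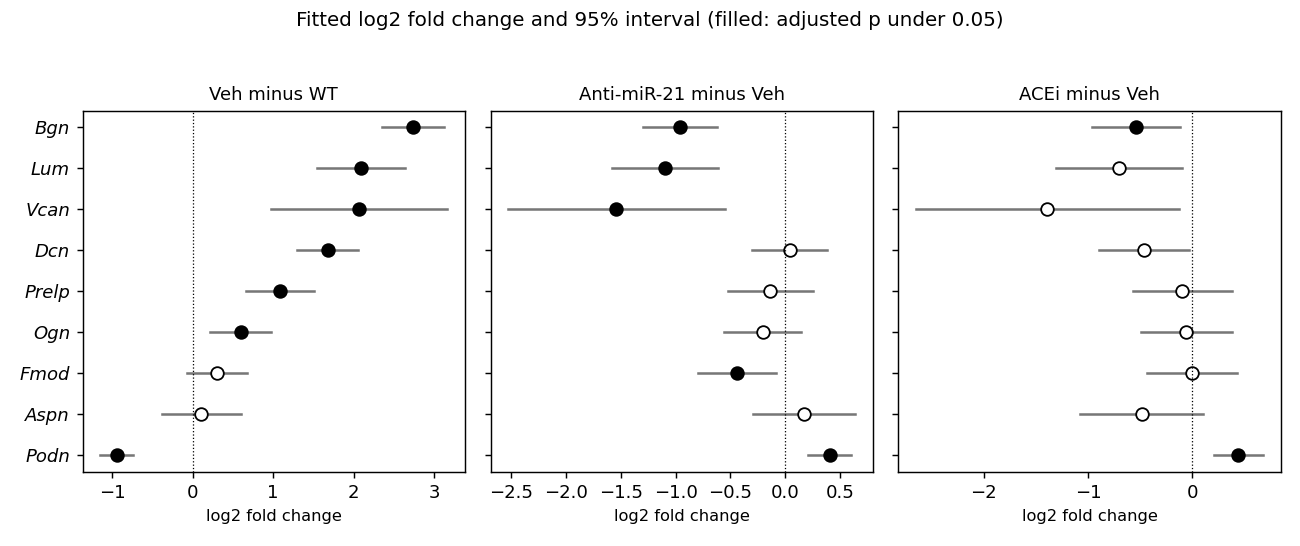
Fitted log2 fold change (point) with its 95% interval (line) for 9 genes in 3 comparisons, filled where the adjusted p was under 0.05. Dcn stands at 1.68 between Veh and WT and at 0.04 between anti-miR-21 and Veh, whereas Bgn goes from 2.74 to −0.96. The treatment comparisons share the Veh mice.

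The treatments were also compared with each other and with WT. None of the 9 genes was called between anti-miR-21 and ACEi by edgeR, against 0.584% of all genes tested, and no groups were apart, against 8.99%. At an unadjusted p under 0.05 there were 4 of the 9, beside 2562 of all 17622 genes tested. These 4 were Dcn 0.50, Bgn −0.42, Fmod −0.44 and Aspn 0.66 on the log2 scale (anti-miR-21 minus ACEi). DESeq2 called 0 of the 9, beside 437 of all 17622 genes tested. Against WT, 5 of the 9 still differed with anti-miR-21, where 43.7% of all genes did, and 6 of the 9 with ACEi, where 47.7% did. Ranges were apart for 4 of the 9 with anti-miR-21, against 23.8%, and for 5 of the 9 with ACEi, against 46.1%. Dcn stayed above WT by 1.72 (adjusted p = 3.07e-07) with anti-miR-21 and 1.22 (adjusted p = 7.95e-05) with ACEi, and Bgn by 1.78 and 2.20 on the log2 scale (adjusted p = 1.33e-07 and 3.11e-08). Lum stayed above by 0.998 and 1.39, Prelp by 0.95 and 0.99, and Podn stayed below by 0.54 and 0.50. On flow cell B alone the call of Lum between ACEi and WT was lost (1.57, adjusted p = 0.0577). With ACEi the call of Podn was lost with library totals (−0.19, adjusted p = 0.185) and in both limma fits on FPKM (−0.16 and −0.18). Ogn was called above WT with ACEi (0.54, adjusted p = 0.0444) and not with anti-miR-21 (0.39, adjusted p = 0.0894), where it was called with library totals (0.64, adjusted p = 0.0125), in both limma fits on FPKM and without A1, A4, A14 and A17 (0.63, adjusted p = 0.0217), and the difference between the treatments was −0.15 and not called. The call of Ogn with ACEi was lost without A3, A18, A13 or A23. It was also lost with only the 2 groups compared (0.568, adjusted p = 0.0844) and on flow cell B alone (0.731, adjusted p = 0.165). Fmod was not called against WT with either treatment (−0.139 and 0.297). With ACEi it was called higher with library totals (0.60, adjusted p = 0.0323) and in both limma fits on FPKM (0.518 and 0.635). Vcan was not called above WT with either treatment (0.53 and 0.68), but was without WT mouse A17 (1.34, adjusted p = 0.0365, and 1.49, adjusted p = 0.0345) and without A1, A4, A14 and A17 (2.48, adjusted p = 0.000725, and 2.63, adjusted p = 0.000663). A17 and A14 had the highest Vcan of the WT mice, so leaving them out had to raise these differences. These fits therefore do not show whether Vcan stayed above WT.

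The ratio of biglycan to decorin counts within a library does not depend on scaling, and it set anti-miR-21 apart from ACEi. In WT mice A3, A6, A14, A17 and A18 the ratio was 3.98, 4.12, 4.26, 4.32 and 4.06. In Veh it ranged from 7.40 (A9) over a median of 8.46 to 10.3 (A16). With anti-miR-21 it ranged from 3.94 (A10) over 4.37 to 5.04 (A8), and with ACEi it was 8.78, 7.45 and 8.60 in A11, A13 and A23. The anti-miR-21 values spread around the WT range, with A10 just below it and 4 mice above it, and the ACEi values lay within the Veh range, while Veh and WT were apart. Over 12 exact two-sided permutation tests of 3 such ratios, Bgn to Dcn was higher in Veh than in WT by 1.08 on the log2 scale (p = 0.00216, adjusted p = 0.00866) and lower with anti-miR-21 than in Veh by 1.01 (p = 0.00216, adjusted p = 0.00866). It was lower with anti-miR-21 than with ACEi by 0.92 (exact p = 0.0119, the smallest that 6 against 3 mice can give, adjusted p = 0.0357). ACEi and Veh differed by −0.08 (exact p = 0.583, adjusted p = 0.636). On both flow cells WT and anti-miR-21 lay below Veh and ACEi without overlap, with 3.98 to 4.26 in WT, 7.40 to 10.1 in Veh, 4.03 to 5.04 with anti-miR-21 and 8.60 in the single ACEi mouse on flow cell A, and 4.06 to 4.32, 8.27 to 10.3, 3.94 in 1 mouse and 7.45 to 8.78 on flow cell B. Divided by length, as FPKM, the ratio was 3.23 ± 0.108 in WT (SD, n = 5), 6.87 ± 0.893 in Veh (SD, n = 6), 3.39 ± 0.305 with anti-miR-21 (SD, n = 6) and 6.45 ± 0.551 with ACEi (SD, n = 3).

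The other ratios compared members of the same class or cluster. Lum to Fmod was 0.122 to 0.791 in WT, with A18 lowest, and 1.25 to 1.90 in Veh, without overlap, a log2 difference of 1.90 (exact p = 0.00216, adjusted p = 0.00866). It was 0.549 to 1.51 with anti-miR-21, lower than in Veh by 0.68 (exact p = 0.0152, adjusted p = 0.0364), and 0.692 to 1.29 with ACEi, lower by 0.68 (exact p = 0.0357, adjusted p = 0.0612). Aspn to Ogn did not differ past the threshold in any of the 4 comparisons. Its largest difference was between anti-miR-21 and ACEi, 0.86 on the log2 scale (exact p = 0.0357, adjusted p = 0.0612).

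**Figure D4:**
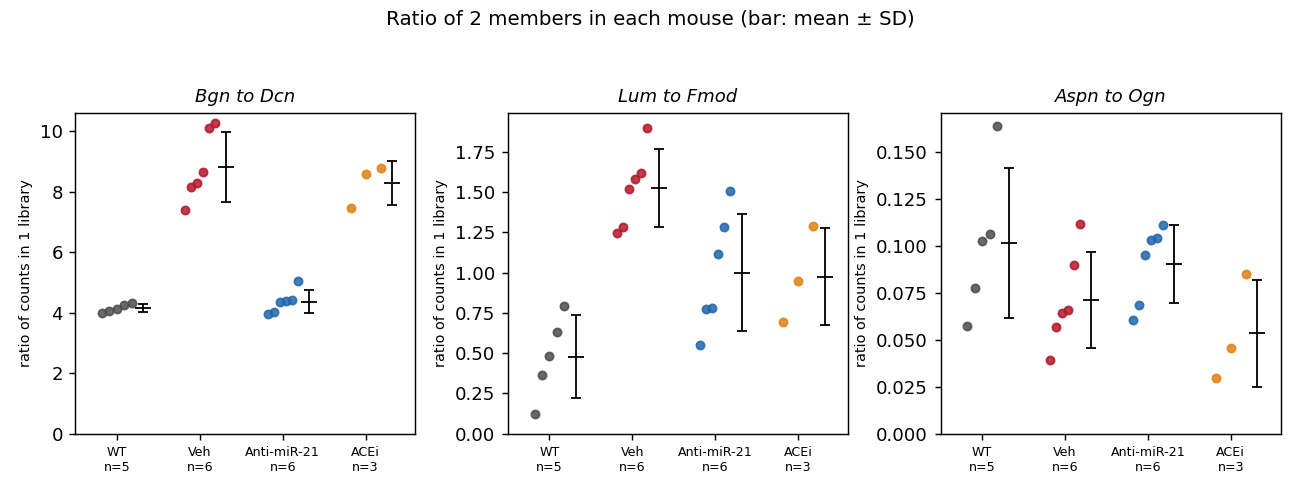
Ratio of the counts of 2 genes within each library (linear axis from 0), 1 point per mouse sorted by value within its group, with the group mean ± SD as a bar (5 WT, 6 Veh, 6 anti-miR-21, 3 ACEi). The Bgn to Dcn ratio is 3.98 to 4.32 in WT, 7.40 to 10.3 in Veh, 3.94 to 5.04 with anti-miR-21 and 7.45 to 8.78 with ACEi.

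Fibroblast and myofibroblast markers were set beside these genes, of which Podn moved the other way and Dcn did not fall with anti-miR-21. Of the 6 fibroblast markers, all but Scara5 rose in Veh, 5 in number, where 39% of all genes tested were higher. Their sum, in which Pdgfrb had the highest mean CPM in each group, was 58.2 to 167 CPM in WT, 329 to 492 CPM in Veh, 180 to 288 CPM with anti-miR-21 and 288, 314 and 322 CPM in the ACEi mice A11, A13 and A23, and none of the 6 was at 0 in any mouse. With anti-miR-21 4 of the 6 were lower than in Veh, and with ACEi 3, beside 30.5% and 19.1% of all genes tested. All 4 myofibroblast markers were higher in Veh and lower with each treatment, with Acta2 highest in mean CPM in WT and Tagln in the other groups, and a sum of 93.3 to 138 CPM in WT, 354 to 508 CPM in Veh, 165 to 239 CPM with anti-miR-21 and 204.5 to 260 CPM with ACEi. A18 was lowest of the WT mice in fibroblast markers and A22 lowest of the anti-miR-21-treated mice, as for many of the proteoglycans. In whole-kidney RNA, more cells of a type and more RNA per cell cannot be told apart, and the part of cell number in these results was not tested.

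The 10 genes lie in part in clusters on the genome. Dcn, Lum, Kera and Epyc follow each other on chromosome 10 with gaps of 47.0, 34.2 and 30.4 kb and no coding gene between. Dcn and Lum both rose in Veh, whereas Kera, the cornea keratan sulphate proteoglycan, had 0 counts in all mice and Epyc was at a mean of 0.343 CPM in WT and 0.362 CPM in Veh and not called. On chromosome 13, Ecm2, Aspn, Omd and Ogn lie 11.7, 14.9 and 15.2 kb apart. There Ecm2 (log2 fold change 0.67, adjusted p = 0.0167) and Ogn rose in Veh, and Aspn and the osteoblast member Omd (−0.03, adjusted p = 0.932) were not called. Optc, the eye member opticin, lies 2.3 kb from Prelp and 115.8 kb separate Prelp from Fmod on chromosome 1, and Optc, at a mean of 0.217 CPM in WT and 0.201 CPM in Veh, was not called. The 4 genes on chromosome 13 are overlapped by Cenpp on the other strand, Vcan and Prelp by antisense or pseudogene models, and Podn by Scp2 on the same strand. How the authors' counting treated strand is not given in the sources used here, so reads of these partners cannot be told apart, and the FPKM of Vcan, Ogn and Aspn were marked by the authors as confounded.

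Genes most alike in pattern were looked for over the 20 mice, which share the group differences. The non-member gene with the highest Pearson correlation of log2 CPM, among 15318 coding genes, was Ppfia4 for Bgn (0.99), Bank1 for Lum (0.98), Aebp1 for Dcn (0.96), Papss1 for Podn (0.96), Nrp2 for Prelp (0.96), Psca for Vcan (0.93), Meis2 for Ogn (0.93), Ptx3 for Fmod (0.85) and Tas1r1 for Aspn (0.73). Aebp1 encodes a matrix-associated protein that binds collagen. Papss1, matched to Podn, the gene that fell in Veh, encodes an enzyme that makes the sulphate donor used on glycosaminoglycan chains. They were picked from the matches for their link to matrix. After group means were taken off, their correlations were 0.85 (Aebp1 with Dcn) and 0.77 (Papss1 with Podn). The 5 genes most like the mean of the 9 were Dchs1, Nexn, Svep1, Pdgfra and Loxl3 (0.96 to 0.97). Among the 9, Bgn and Lum were most alike (0.94), Bgn and Podn least (−0.87). After group means were taken off, Bgn and Dcn stayed alike (0.91), so that they varied together within groups while their ratio differed between groups.

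Genes that build, bind or cut these proteins were followed in 7 lists, whose counts stand beside 39% higher and 34% lower of all genes tested between Veh and WT, 28.8% and 30.5% between anti-miR-21 and Veh, and 21% and 19.1% between ACEi and Veh. The medians of all genes in these comparisons were 0.07, −0.04 and −0.05. Of the 22 genes of chondroitin and dermatan sulphate chain synthesis, 11 rose and 7 fell in Veh against WT (median log2 fold change 0.25). Fam20b and B3gat3, which act on the linker of the chain and were the most abundant, were lower by 0.72 (adjusted p = 3.99e-09) and 0.20 (adjusted p = 0.0337). The polymerase gene Chsy3 rose most (2.41, adjusted p = 5.03e-05), and Chst7, a sulphotransferase, fell most, from 57.0 to 10.1 mean CPM (−2.50, adjusted p = 4.15e-10). With anti-miR-21, 6 were higher and 10 lower than in Veh (median −0.19), and with ACEi 6 were higher and 4 lower (median −0.15). The shares called between Veh and WT and between ACEi and Veh lie near those of all genes. All 4 tested of the 6 keratan sulphate genes were higher in Veh (median 1.22), among them the sulphotransferases Chst1 (1.28, adjusted p = 2.07e-07) and Chst2 (1.07, adjusted p = 9.97e-05), and B3gnt7, which extends the chain (1.33, adjusted p = 4.97e-07). Of these 4, 3 were lower with anti-miR-21 (median −0.60) and 2 with ACEi (median −0.46).

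Of the 12 genes for collagens and receptors that decorin and biglycan are known to bind, 10 were higher and 1 lower in Veh, with a median log2 fold change of 2.90. The fibril collagen Col3a1 went from a mean of 58.5 to 1414 CPM (4.59, adjusted p = 4.92e-11) and Col1a2 from 76.2 to 1075 CPM (3.82, adjusted p = 7.19e-11), and the growth factor receptor Met was lower (−0.98, adjusted p = 6.71e-10). With anti-miR-21, 10 of the 12 were lower and 1 higher than in Veh (median −1.24), and with ACEi 9 lower and 1 higher (median −0.78). Col3a1 fell by 2.25 with anti-miR-21 (adjusted p = 2.82e-07), beside a log2 fold change of 0.04 for Dcn, which passed no test.

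Of the 12 tested of 15 genes linked to hyaluronan or to the large proteoglycans that bind it, 6 were higher and 5 lower in Veh (median 1.01). The hyaluronan synthase Has2 had 0 counts in every WT mouse and 0.588 to 1.66 CPM in Veh, at least 44.5-fold higher against a floor of 3 counts over the WT group. Hyal2, a hyaluronidase, was lower (−0.44, adjusted p = 0.000122), as were Itih5, of the family that links to hyaluronan (−1.34, adjusted p = 8.63e-08), and the link protein gene Hapln1 (−2.25, adjusted p = 0.000598). With anti-miR-21, 2 were higher and 5 lower (median −0.14), and with ACEi 4 were higher and 1 lower (median −0.10). Of the 6 tested of 7 proteases that cut versican and aggrecan, 4 were higher and 1 lower in Veh (median 1.10). Adamts1 went from 33.5 to 130 mean CPM (1.95, adjusted p = 1.02e-09) and Adamts4 rose most (3.16, adjusted p = 3.93e-10), Adamts5 was also higher (0.96, adjusted p = 1.16e-05), and Adamts15 was lower (−0.53, adjusted p = 0.0286). With anti-miR-21 3 of the 6 were lower (median −0.50), and with ACEi 2 (median −0.09).

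Heparan sulphate proteoglycans of cell surfaces and basement membranes mostly rose in Veh. Of 13, 9 were higher and 3 lower in Veh (median 1.47). Col18a1, the basement membrane collagen XVIII and the most abundant, went from 254 to 891 mean CPM (1.81, adjusted p = 6.51e-11), Sdc1 rose most (2.82, adjusted p = 3.83e-11), Gpc4 fell (−1.30, adjusted p = 6.4e-10), and Sdc4 was lower by 0.33 (adjusted p = 0.000179). With anti-miR-21, 3 were higher and 9 lower (median −0.87), and with ACEi 2 were higher and 8 lower (median −0.70). Of the 8 tested of 10 other small leucine-rich genes, 3 were higher and 2 lower in Veh (median 0.02). Podnl1, the nearest relative of Podn, rose (2.64, adjusted p = 6.85e-07), opposite to Podn, whereas Chadl fell (−1.27, adjusted p = 2.88e-07) and Tsku fell (−1.03, adjusted p = 5.1e-05). Of these 8, 1 was higher and 1 lower with anti-miR-21 (median −0.04), and 1 was higher with ACEi (median −0.20).

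**Figure D5:**
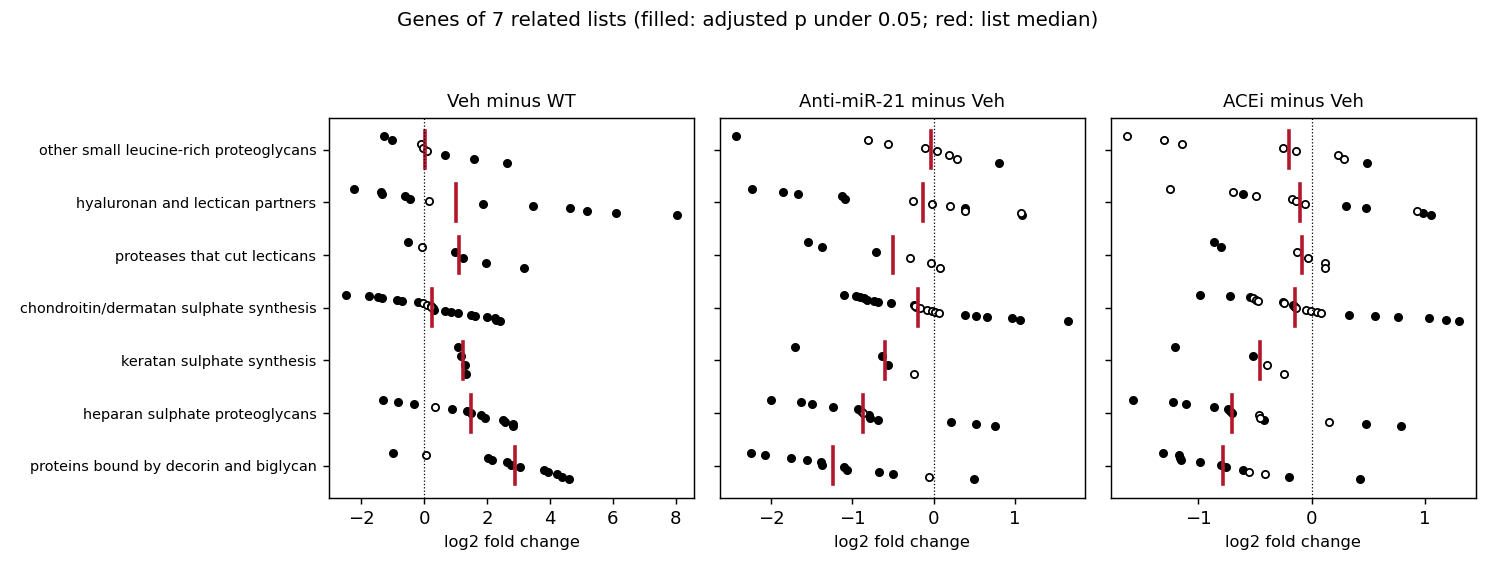
Fitted log2 fold change of each tested gene of 7 lists in 3 comparisons, 1 point per gene, filled where the adjusted p was under 0.05, with the list median in red and a separate horizontal scale in each panel. The fitted values of Has1 and Has2 in the first panel depend on the prior count, as WT mice had 0 counts. The median of the decorin- and biglycan-bound proteins is 2.90 between Veh and WT, −1.24 with anti-miR-21 and −0.78 with ACEi.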

How the data were processed

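Kidney RNA of 20 mice in 4 groups was sequenced as paired-end reads. Per the methods and labels, alignment by the authors was to GRCm38 (OmicSoft OSA4). For each Ensembl gene the authors deposited an estimated count (expected count) that was not normalized, and of these 23.2% of positive values are not whole within 0.001. They also deposited FPKM for 33368 entries, divided by exon length and library total. Each column was given to its mouse by the library name in the labels, and 3 FPKM columns matched to no sample were not used. The methods name DESeq2 for the counts, and edgeR was used here as the main test.

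After rounding and a filterByExpr filter (a minimum count of 10 and a total of at least 15), edgeR 4.0.16 was run in R 4.3.3 by quasi-likelihood, with TMM scaling, 1 coefficient per group and all 20 mice, and with Benjamini-Hochberg adjustment. Log2 CPM used a prior count of 2. The alternatives were DESeq2 1.42.0, limma 3.58.1 on log2(FPKM + 1) or log2(FPKM + 0.1), other scalings and filters, flow cell, and mice left out. Flow cell B alone and the sets of 4 mice left out were chosen after seeing the data. Ratios were compared with exact two-sided permutation tests, adjusted over 12. Genes without a symbol held 0.0919% of the counts. Intervals are 95% intervals, and a count of 0 was given a floor of 3 counts. Plots used Python 3.11.15 and matplotlib 3.10.9. The scripts were tested on simulated data.

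The 10 genes, the 7 pathway lists and the 14 marker lists were chosen with earlier results of these data known. From each pathway list the text names the 2 most abundant genes and the called genes with the highest and the lowest change between Veh and WT. It also names the small leucine-rich genes beside the 10 on the genome, the genes most alike in pattern, and markers. Flow cell A alone was not run for ACEi, which had 1 mouse there, and flow cell B alone was run only for comparisons without anti-miR-21 for the same reason.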

Additional observations from a re-analysis of the deposited data

Results flagged for a closer look

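The ratio of Bgn to Dcn counts differed between the treatments, by −0.92 on the log2 scale (anti-miR-21 minus ACEi, exact permutation p = 0.0119, adjusted p = 0.0357). It was singled out because this adjusted p was under 0.05. It was lower in 6 of 6 anti-miR-21-treated mice than in any of the 3 ACEi-treated mice. In none of the 36 groups of values checked, over 9 genes and 3 ratios in WT, Veh and anti-miR-21, did a single mouse stand apart by Dixon's criterion, which chance meets in about 1 of 20. ACEi, with 3 mice, was not checked.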

How the results depend on the processing

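Replicate names are unique to each mouse. No paired analysis was possible because the groups share no replicate number. Of the counts and ratios, those below moved, and the cause was not tested. Between ACEi and Veh the number of members called, 2 of 9, was 5 with library totals, with limma on log2(FPKM + 1) or log2(FPKM + 0.1) and with only the 2 groups compared. It was 4 with upper-quartile scaling, 1 with no filter and without the 4 mice highest in adipocyte markers, 0 on flow cell B alone, and 1 to 1 when each mouse was left out. Of all genes, library totals called 9296 of 17622, the limma fits 9642 and 9173 of 21460, and the 2 groups alone 7099 of 17130. Upper-quartile scaling called 7380 of 17622, no filter 6443 of 27201, and flow cell B 1316 of 17903. Without the 4 adipocyte-high mice 4614 of 17263 were called, and 4978 to 7335 when each mouse was left out. Without those 4 mice, members called between anti-miR-21 and Veh were 3 instead of 5, while genes called went from 10440 to 8007. Genes called between ACEi and Veh, 7074, were 1316 on flow cell B and 4614 without the 4 mice, and between ACEi and WT, 8405, they were 4999 on flow cell B. Genes called between anti-miR-21 and ACEi, 103, were 437 with DESeq2, 155 with at least 10 counts in every mouse, 66 with no filter, 60 with limma on log2(FPKM + 0.1), 63 without the 4 mice, and 21 (without A23) to about 2.1e+02 (without A8) when each mouse was left out. When each mouse was left out, the Lum to Fmod difference ranged from −0.90 to −0.45 between ACEi and Veh and from −0.225 to 0.224 between anti-miR-21 and ACEi, and the Aspn to Ogn difference from 0.50 to 1.27 between anti-miR-21 and ACEi. The Bgn to Dcn difference ranged from 1.03 to 1.12 between Veh and WT, from −1.06 to −0.96 between anti-miR-21 and Veh and from −0.998 to −0.88 between anti-miR-21 and ACEi. These groups do not overlap, so leaving out a mouse could not move the exact p off its minimum.

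Signs turned for small log2 fold changes. For anti-miR-21 minus Veh, Dcn was −0.29 with library totals, −0.04 with upper-quartile scaling, −0.32 with limma on both FPKM scales, −0.057 on flow cell A alone, −0.012 without A1, A4, A14 and A17 (the highest WT and Veh mice in urothelium markers) and −0.04 to 0.14 when each mouse was left out, and Aspn was −0.16 with library totals and −0.084 and −0.144 with limma on log2(FPKM + 1) and log2(FPKM + 0.1). For ACEi minus Veh, Fmod was 0.013 with no filter, 0.053 on flow cell B, 0.071 and 0.018 without the adipocyte-high and urothelium-high mice and −0.152 to 0.155 when each mouse was left out, and Ogn −0.13 to 0.068. For anti-miR-21 minus ACEi, Vcan was 0.164 once flow cell entered the fit and −0.333 to 0.019 when each mouse was left out, Prelp −0.14 to 0.035 and Podn −0.061 to 0.017. For anti-miR-21 minus WT, Fmod was 0.11 with library totals, 0.11 and 0.14 with limma on the FPKM scales and −0.243 to 0.003 when each mouse was left out, and Aspn for Veh minus WT −0.043 to 0.238. Depth was nearly equal between mice. Acan, at 0 counts in 18 mice, was too low to test.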

Other observations

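Marker genes of the other cells in the kidney were measured in the same libraries, as counts of called genes between Veh and WT, where 73% of all genes tested were called, 39% higher and 34% lower. The counts in these short lists are given as values, and nothing particular to a list is read from them. All 5 macrophage markers were higher, with a median log2 fold change of 4.001, with C1qb highest in mean CPM in Veh and Csf1r in the other groups, and a sum of 137 to 150 CPM in WT, 771 to 943 CPM in Veh, 334 to 503 CPM with anti-miR-21 and 431 to 510 CPM with ACEi. All 4 proximal tubule markers were lower in Veh (median −2.17), with sums of 1162 to 3120 CPM, and higher than in Veh with anti-miR-21 (median 1.76) and with ACEi (median 1.402). Of the 3 thick ascending limb markers 1 was higher and 2 were lower (median −0.90), and 2 of the 3 collecting duct markers were lower (median −0.42). Of the 4 vascular smooth muscle markers 3 were higher (median 0.75), of the 4 podocyte markers 3 were higher (median 0.30), and of the 4 endothelial markers 2 were higher and 1 was lower (median 0.45).

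Of the 6 adipocyte markers 5 were higher in Veh (median 3.71), though the sums of Veh mice A16, A19 and A20 were 0.705 to 24.4 CPM. Of the 5 urothelium markers 4 were higher (median 2.27) and all 5 were lower with each treatment than in Veh. Of the 3 mesothelium markers 1 was higher (median 1.07). Both tested of 4 cartilage markers and both tested of 4 adrenal gland markers were not called. Cd44, a hyaluronan receptor chosen after its values were seen, rose from a mean of 1.77 CPM in WT to 63.4 CPM in Veh (log2 fold change 5.16, edgeR adjusted p = 7.53e-13).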
